A study of Mus musculus with 12 samples.

Results

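The genes described here are the Rel and NF-κB transcription factor subunits (Rel, Rela, Relb, Nfkb1 and Nfkb2) and the IκB family that binds them (Nfkbia, Nfkbib, Nfkbid, Nfkbie and Bcl3). They were chosen by name, as every probe annotated to these 10 symbols. Of the 10 genes, 9 had an annotated probe and 8 were detected and tested, among 9566 genes tested of 19057 with a probe. Nfkb1 was not analysed here, and Nfkb2 had a single probe that was not detected on any array. RNA was measured on 12 Illumina bead arrays, 3 for each of 4 sorted populations of dividing mouse CD4 T cells. The cells came from DO11.10 mice, which carry a transgenic T cell receptor for an ovalbumin (OVA) peptide, and were naive CD4 T cells loaded with CFSE, a dye that each division dilutes. They were given to Balb/c hosts, which then received the OVA peptide in complete Freund's adjuvant (CFA). Lymph nodes were taken after 66 to 72 hours, and sorting on CFSE gave the populations D3, D4, D6 and D8, whose labels state 2, 3, 5 and 7 past divisions. All groups therefore carried the same transgene and had the same immunization, and no unstimulated or undivided cells were measured. The hosts kept their own lymphocytes, and the labels name no antibody gate on the transferred cells. Per the design text, transfer of D4 cells readily yielded memory cells, and the other divisions yielded fewer. The numbers 1 to 3 of the arrays mark 3 independent experiments, each of which gave 1 array per division.

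NF-κB factors are dimers of Rel family proteins that are held in the cytoplasm by IκB proteins. Signals from the T cell receptor, CD28 and receptors of the tumour necrosis factor (TNF) family activate IκB kinase, which marks IκB proteins for degradation and frees the dimers to enter the nucleus. Several IκB genes and Rel genes are themselves targets of NF-κB, so that the pathway feeds back on its own components. In T cells it is known for inducing cytokines, survival genes and the cell cycle entry that follows antigen recognition. Transcript levels, which are what was measured here, do not give the amount of protein or its place in the cell.

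Between 15563 and 16666 probes were detected per array, and median intensity before normalization lay between 41.6 and 51.2. Values below are log2 intensities after background correction and quantile normalization, and triplets are given in the order of experiments 1, 2 and 3. Changes are differences of the 3-array means on that log2 scale ± the standard error of the fit, and adjusted p-values are from limma with Benjamini-Hochberg adjustment over all 9566 genes. A gene was called at an adjusted p under 0.05. Of the 7 annotated T cell markers, 6 were detected in all divisions (all but Cd5). Their summed linear intensity was 53458 to 57430 in D3 and 45906 to 46744 in D8. Cd4 was the dimmest of these 6, with means of 8.13 in D3 and 8.22 in D8. From D3 to D8, Cd3d, Cd3g and Cd2 fell, and Cd3e, Cd4 and Thy1 were not called.

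From D3 to D8, all 3 measured subunits (Rel, Rela and Relb) and 3 of the 5 IκB genes (Nfkbia, Nfkbid and Nfkbie) fell, while Bcl3 and Nfkbib rose. All 8 measured members were thus called, 2 higher and 6 lower, in a comparison in which 36.5% of all genes tested were called, 17.6% higher and 18.9% lower. The arrays of D3 and D8 did not overlap for any of the 8, which held for 46.9% of all genes. The median change of the 8 was -0.52, against 0.00 over all genes tested. All 3 experiments gave the direction of the mean for each of the 8 genes, as follows from the lack of overlap. Since the RNA came from sorted populations, fewer cells expressing a gene and less RNA per cell cannot be told apart. With the experiment as a block all 8 were called again, with adjusted p-values from 5.3e-07 (Bcl3) to 0.024 (Nfkbie) by limma. In that fit 44.1% of all genes tested were called. In the fit without the block, leaving out the D3 array of experiment 1 or the D8 array of experiment 2 gave a count of 5 of 8. Fits with an array left out, here and below, did not use the experiment block, and the share of all genes called is not given for them. Such counts therefore do not separate the members from the whole table.

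**Figure D1:**
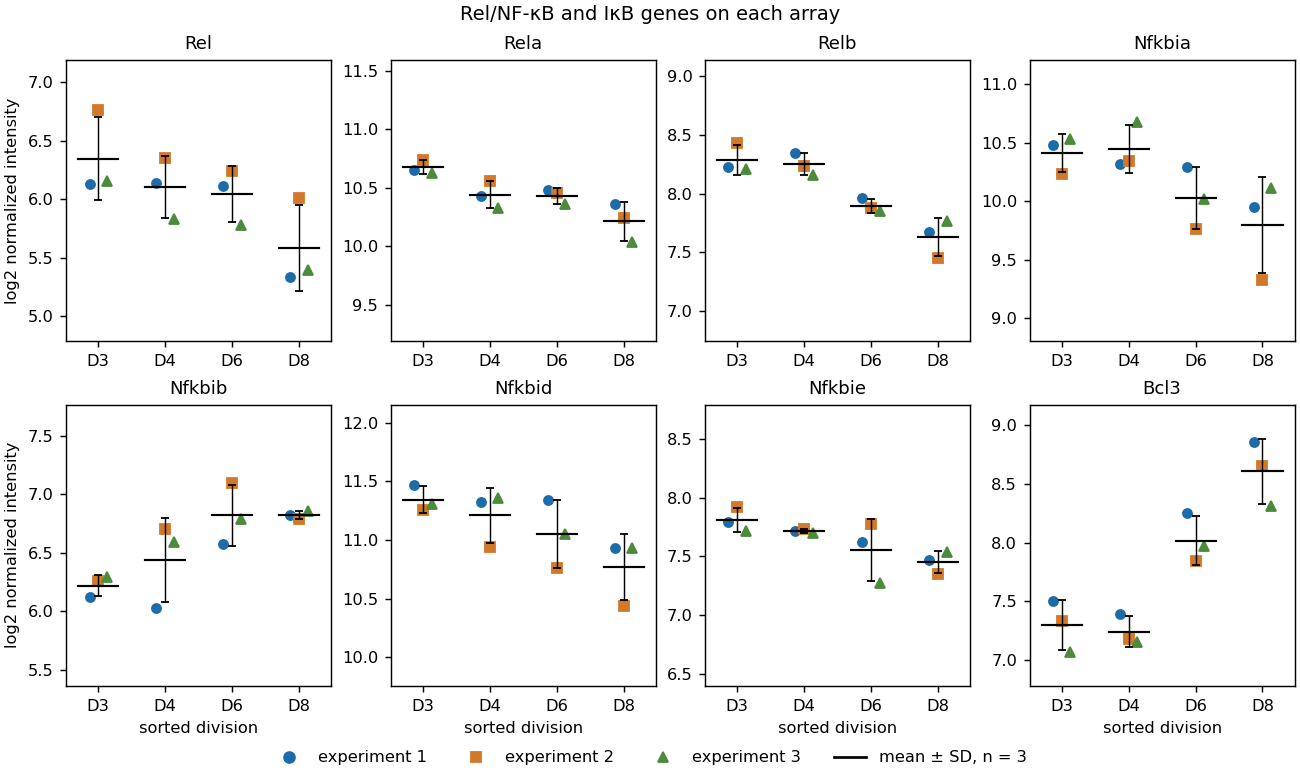
Log2 normalized intensity (y axis) of the 8 measured genes on each of the 12 arrays, by sorted division (x axis). Points are arrays, marked by experiment, black bars are means and error bars are SD of 3 arrays, and every panel spans the same range of log2 units. Bcl3 and Nfkbib stand higher in D8 than in D3 and the other 6 genes stand lower, with no overlap of the D3 and D8 arrays.

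Rel encodes c-Rel, a subunit that is prominent in lymphocytes and is needed for full interleukin-2 production by T cells. It read 6.13, 6.76 and 6.16 in D3, then 6.14, 6.35 and 5.83 in D4, 6.11, 6.24 and 5.78 in D6 and lastly 5.34, 6.01 and 5.40 in D8. Experiment 2 was the highest in every division, and experiments 1 and 3 had their largest step down between D6 and D8. From D3 to D8 Rel fell by 0.76 ± 0.21 on the log2 scale (1.70-fold lower, adjusted p = 0.011 by limma, n = 3 arrays per division). Within the experiments the difference was almost the same, at -0.79, -0.75 and -0.75, and the fit with the experiment as a block gave a standard error of 0.11 (adjusted p = 0.000137 by limma). With the experiment as a block, Rel was also lower in D8 than in D4 (-0.52, adjusted p = 0.00303 by limma, against 0.0804 without the block) and than in D6 (-0.46, 0.0143 against 0.204). The probe was dim, with raw intensities of 60.7 to 155, but was detected on all 12 arrays. The D3 to D8 call was lost without the D3 array of experiment 2 (-0.56, adjusted p = 0.0598 by limma) and without the D8 array of experiment 1 (-0.64, 0.0541).

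Rela encodes the subunit with a strong activation domain that forms the classical NF-κB dimer with the product of Nfkb1. Its intensities were 10.65, 10.74 and 10.63 in D3, then 10.43, 10.56 and 10.33 in D4, 10.48, 10.46 and 10.36 in D6 and lastly 10.36, 10.24 and 10.04 in D8. The D3 arrays were above those of every other division, and D4 and D6 could not be ordered (difference -0.01 ± 0.11). Rela fell by 0.46 ± 0.11 from D3 to D8 (1.38-fold lower, adjusted p = 0.00414 by limma, n = 3). The step from D3 to D4 measured -0.23 ± 0.11 with an adjusted p of 0.722 by limma. None of the 12 single arrays left out ended the D3 to D8 call.

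Relb encodes the subunit that pairs with the processed product of Nfkb2 in the non-canonical pathway. It read 8.23, 8.43 and 8.21 in D3, then 8.35, 8.24 and 8.16 in D4, 7.96, 7.88 and 7.85 in D6 and lastly 7.67, 7.45 and 7.77 in D8. D3 and D4 overlapped, and all D6 arrays lay below both and above all D8 arrays. Relb fell by 0.66 ± 0.11 from D3 to D8 (1.58-fold lower, adjusted p = 0.000383 by limma, n = 3) and by 0.62 ± 0.11 from D4 to D8 (adjusted p = 0.000867 by limma). These 2 calls held with each of the 12 arrays left out. From D3 to D6 it fell by 0.39 ± 0.11 (adjusted p = 0.0308 by limma). That call was lost without any 1 of 5 arrays, namely the D3 arrays of experiments 1 (adjusted p = 0.0548 by limma) and 2 (0.125) and the D6 arrays of experiments 1, 2 and 3 (0.0536, 0.0859 and 0.0945). Its partner gene Nfkb2 had means of 4.34 ± 0.01 (D3), 4.37 ± 0.02 (D4), 4.33 ± 0.04 (D6) and 4.28 ± 0.03 (D8; SD, n = 3), with detection on 0 of 12 arrays, so that no change of it could be measured.

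Nfkbia encodes IκBα, the inhibitor that NF-κB induces as a rapid negative feedback. The brighter of its 2 probes read 10.48, 10.23 and 10.53 in D3, then 10.32, 10.34 and 10.68 in D4, 10.29, 9.76 and 10.02 in D6 and lastly 9.95, 9.33 and 10.11 in D8. D3 and D4 overlapped, and D8 lay below both, with its lowest array in experiment 2. Nfkbia fell by 0.62 ± 0.19 from D3 to D8 (1.53-fold lower, adjusted p = 0.021 by limma, n = 3) and by 0.65 ± 0.19 from D4 to D8 (adjusted p = 0.0201 by limma). With the experiment as a block these adjusted p-values were 0.00232 and 0.00208 by limma. The dimmer probe, at means of 6.15 in D3 and 5.75 in D8, gave -0.40 ± 0.17 from D3 to D8 with an adjusted p of 0.0758 by limma over all 14972 probes. Without the D8 array of experiment 2 the brighter probe gave -0.38 for D3 to D8 (adjusted p = 0.104 by limma) and -0.42 for D4 to D8 (0.0944). The first call was also lost without the D3 array of experiment 1 (0.0609) or 3 (0.0686), and the second without the D4 array of experiment 3 (0.0835).

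Nfkbib encodes IκBβ, a cytoplasmic inhibitor that is not part of the rapid feedback loop. It read 6.12, 6.26 and 6.29 in D3, then 6.03, 6.70 and 6.59 in D4, 6.58, 7.10 and 6.79 in D6 and lastly 6.82, 6.79 and 6.86 in D8. All D6 and D8 arrays were above all D3 arrays, and the means of D6 and D8 differed by 0.00 ± 0.16. Nfkbib rose by 0.60 ± 0.16 from D3 to D8 (1.52-fold, adjusted p = 0.0106 by limma, n = 3), and each array left out in turn kept this call. It also rose by 0.60 ± 0.16 from D3 to D6 (adjusted p = 0.025 by limma). The D3 to D6 call was lost without the D3 array of experiment 1 (adjusted p = 0.0874 by limma) or 2 (0.06) and without the D6 array of experiment 2 (0.115) or 3 (0.0571). From D4 to D8 the difference was 0.38 ± 0.16, with an adjusted p of 0.101 by limma and of 0.0321 with the experiment as a block.

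Nfkbie encodes IκBε, a further inhibitor induced by NF-κB. Its brighter probe read 7.79, 7.92 and 7.72 in D3, then 7.72, 7.73 and 7.70 in D4, 7.62, 7.78 and 7.27 in D6 and lastly 7.47, 7.35 and 7.54 in D8. The D8 arrays lay below those of D3 and D4 and overlapped those of D6. Nfkbie fell by 0.36 ± 0.13 from D3 to D8 (1.28-fold lower, adjusted p = 0.038 by limma, n = 3), the smallest change of the 8 genes. The dimmer probe gave -0.10 ± 0.15 (adjusted p = 0.637 by limma over all probes), and the mean of both probes gave -0.23 (0.146). The call was lost without the D3 array of experiment 1 (adjusted p = 0.0736 by limma) or 2 (0.127) and without the D8 array of experiment 1 (0.0784) or 2 (0.121).

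**Figure D2:**
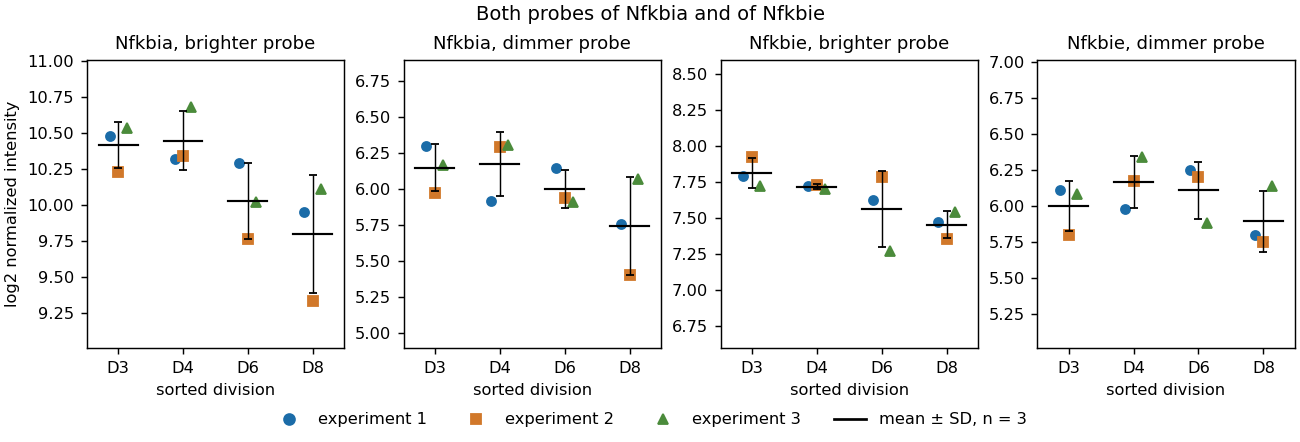
Log2 normalized intensity (y axis) by division (x axis) for both probes of Nfkbia and of Nfkbie. Points are arrays marked by experiment, bars are means and error bars are SD of 3 arrays, and all panels span the same range. The D8 minus D3 difference was -0.62 and -0.40 for the Nfkbia probes and -0.36 and -0.10 for the Nfkbie probes.

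Nfkbid encodes IκBNS, a nuclear IκB protein induced by T cell receptor signals that supports interleukin-2 and Foxp3 expression in mice. It read 11.47, 11.26 and 11.31 in D3, then 11.32, 10.94 and 11.36 in D4, 11.34, 10.76 and 11.05 in D6 and lastly 10.93, 10.44 and 10.93 in D8. Experiment 2 was the lowest in each division, and D8 lay below D3 and D4. Nfkbid fell by 0.58 ± 0.17 from D3 to D8 (1.49-fold lower, n = 3), with an adjusted p of 0.016 by limma and of 0.000594 with the experiment as a block. From D4 to D8 it measured -0.44 ± 0.17, with an adjusted p of 0.0667 by limma and of 0.00479 with the experiment as a block. The D3 to D8 call was lost without the D3 array of experiment 1 (-0.52, adjusted p = 0.0596 by limma) or the D8 array of experiment 2 (-0.42, 0.082).

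Bcl3 encodes another nuclear IκB protein, which binds dimers of the Nfkb1 and Nfkb2 products on DNA and is known to support the survival of activated T cells. It read 7.50, 7.33 and 7.07 in D3, then 7.39, 7.18 and 7.15 in D4, 8.25, 7.84 and 7.97 in D6 and lastly 8.86, 8.65 and 8.31 in D8. The D3 and D4 arrays overlapped, all D6 arrays lay above them, and all D8 arrays lay above all D6 arrays. Bcl3 rose by 1.31 ± 0.16 from D3 to D8 (2.48-fold, adjusted p = 1.9e-05 by limma, n = 3) and by 1.37 ± 0.16 from D4 to D8 (2.59-fold, adjusted p = 2.01e-05 by limma). The experiments gave 1.36, 1.33 and 1.24 for D3 to D8. Its change was the largest of the 8 members and ranked 413 by size among the 9566 genes, where that of Rel ranked 1181. Bcl3 also rose by 0.72 ± 0.16 from D3 to D6 (adjusted p = 0.00721 by limma), by 0.78 ± 0.16 from D4 to D6 (0.012) and by 0.59 ± 0.16 from D6 to D8 (0.0308). The D3 to D8, D4 to D8 and D3 to D6 calls held with each array left out. The D4 to D6 call was lost without the D6 array of experiment 1 (adjusted p = 0.0581 by limma). That from D6 to D8 was lost without the D6 array of experiment 2 (0.129) or 3 (0.0936) and without the D8 array of experiment 1 (0.159) or 2 (0.0884). With median centring in place of quantile normalization, Bcl3 kept its direction but lost 3 calls. These were D3 to D6 (0.53, adjusted p = 0.193 by limma), D4 to D6 (0.71, 0.205) and D6 to D8 (0.69, 0.144).

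**Figure D3:**
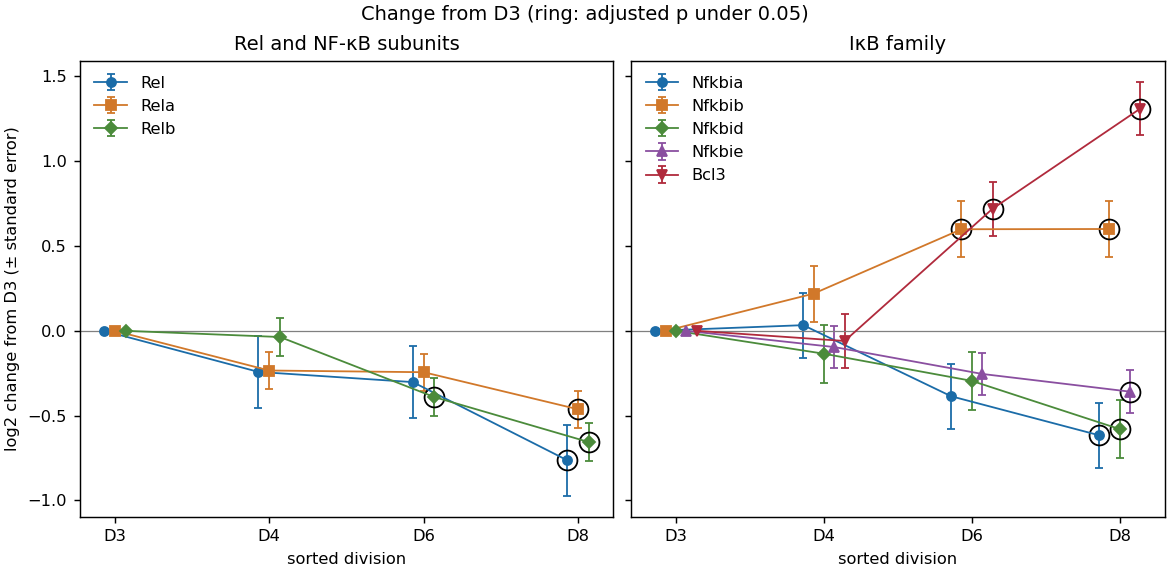
Log2 change from D3 (y axis) at D4, D6 and D8 (x axis) for the Rel and NF-κB subunits on the left and the IκB family on the right. Points are fitted differences of 3-array means, error bars are standard errors, and rings mark an adjusted p under 0.05. No gene is ringed at D4, Bcl3, Nfkbib and Relb are ringed at D6, and all 8 are ringed at D8.

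Fewer members were called between neighbouring divisions than between D3 and D8. Between D3 and D4, 0 of the 8 genes were called, where 0.0105% of all genes were. The lowest adjusted p was 0.722 by limma (0.316 with the experiment as a block), and 1 of the 8, Rela, had an unadjusted p under 0.05, as did 656 of all genes. Between D4 and D6, 1 of 8 was called (Bcl3), with 4.27% of all genes called. Between D6 and D8 it was again 1 of 8 (Bcl3), with 9.31% called. Both counts went to 0 without single arrays named above for Bcl3. With the experiment as a block this count was 2 of 8 (Bcl3 and Rel), with 17.4% of all genes called. Between D3 and D6, 3 of 8 were called, with 14.8% of all genes called, and leaving out the D3 array of experiment 1 or 2 or the D6 array of experiment 2 or 3 left 1 of 8. Between D4 and D8, 3 of 8 were called (Bcl3 higher, Relb and Nfkbia lower), with 28.5% of all genes called. The block raised this to 6 of 8, with 37.2% of all genes called, by adding Rel, Nfkbid and Nfkbib. Without the D4 array of experiment 2 it was 5 of 8. These comparisons share arrays and are not independent of each other.

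The means of Rel, Rela, Relb, Nfkbid and Nfkbie were lower at each of the 3 steps from D3 to D8, and those of Nfkbib were higher at each, by 0.00 at the last. These were 5 and 1 of the 8 members, against 18.6% of all genes tested with means lower at every step and 16.7% with means higher at every step. Several of the steps were smaller than their standard error. Among them were D4 to D6 for Rela (-0.01 ± 0.11) and Rel (-0.06 ± 0.21) and D3 to D4 for Relb (-0.04 ± 0.11). Nfkbia was highest in D4 and Bcl3 lowest in D4, although neither differed there from D3 beyond its spread (0.03 ± 0.19 and -0.06 ± 0.16).

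The study's question about D4, the division that most readily gave memory cells, was addressed by setting D4 against the mean of D3, D6 and D8. Of the 8 genes, Bcl3 alone was called, at -0.74 ± 0.13 (adjusted p = 0.00425 by limma, n = 3), where 5.92% of all genes were called. The count rose to 2 of 8, with Relb (0.34, adjusted p = 0.0389 by limma), when the D8 array of experiment 3 was left out. With the experiment as a block it was 3 of 8, by adding Relb (0.31, adjusted p = 0.0354 by limma, against 0.0623 without) and Nfkbia (0.37, 0.0442 against 0.205), and 12.6% of all genes were called. The D4 and D3 arrays of Bcl3 overlapped, as given above, and those of D6 and D8 lay above both. For Relb and Nfkbia the D4 and D3 arrays overlapped as well, with D4 minus D3 at -0.04 ± 0.11 and 0.03 ± 0.19, and the means of D6 and D8 were lower.

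Promoter sequences are shown because several of these genes are known targets of their own products, and the windows let the members that moved together be compared. RefSeq windows of 300 bases (250 before to 50 after the start, build GRCm38.p6) were at hand for 8 of the 10 genes, among them Nfkb2, and those of Relb and Nfkb1 were not used here. The κB consensus was searched on both strands, and a match was found in 8.46% of all 32851 windows. Counted by gene, as the members are below, 9.55% of 27025 genes had a match in any of their windows. Rel, Nfkbia, Nfkbid, Nfkbie and Bcl3 each had a match, as had Nfkb2, while the windows of Rela and Nfkbib had none. Matches thus occurred among genes that fell and in Bcl3, which rose. A match is a description of letters and does not show binding, and no match says only that these letters are absent from the window. The 250 bases before the start are given 5′ to 3′ on the gene's strand for Rel (chr11:23770970-23771219, minus strand), Nfkbia (chr12:55492648-55492897, minus strand) and the window of Nfkbid that held matches, the second of 3 (chr7:30422156-30422405, plus strand). For Nfkbie (chr17:45555584-45555613, plus strand) and Bcl3 (chr7:19822734-19822763, minus strand) 30 bases around the match are given. Capitals mark the κB matches, which begin at positions -92 and -91 relative to the start in Rel (2 that overlap), at -29 in Nfkbia, at -226 and -181 in Nfkbid, at -106 in Nfkbie and at 3 in Bcl3.
Rel: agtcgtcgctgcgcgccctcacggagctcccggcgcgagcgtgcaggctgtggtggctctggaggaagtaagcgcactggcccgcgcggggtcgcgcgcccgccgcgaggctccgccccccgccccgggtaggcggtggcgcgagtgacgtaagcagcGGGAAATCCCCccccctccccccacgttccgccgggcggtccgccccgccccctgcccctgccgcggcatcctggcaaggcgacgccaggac
Nfkbia: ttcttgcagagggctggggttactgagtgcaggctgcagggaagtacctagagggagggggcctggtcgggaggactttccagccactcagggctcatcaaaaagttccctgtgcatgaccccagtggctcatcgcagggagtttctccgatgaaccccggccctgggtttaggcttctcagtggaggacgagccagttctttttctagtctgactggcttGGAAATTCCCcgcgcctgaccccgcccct
Nfkbid: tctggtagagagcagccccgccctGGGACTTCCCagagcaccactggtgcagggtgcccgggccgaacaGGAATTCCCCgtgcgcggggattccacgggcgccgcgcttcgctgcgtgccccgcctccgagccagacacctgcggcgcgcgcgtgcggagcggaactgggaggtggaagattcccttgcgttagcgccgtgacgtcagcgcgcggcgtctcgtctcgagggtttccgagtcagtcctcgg
Nfkbie: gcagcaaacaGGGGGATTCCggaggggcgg
Bcl3: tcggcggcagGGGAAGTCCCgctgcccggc

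The genes that activate NF-κB did not move in 1 direction from D3 to D8. Of 17 tested genes of the canonical route from receptors to IκB kinase, 4 rose and 2 fell, with a median change of 0.02. Ube2n, the ubiquitin-conjugating enzyme that works with Traf6, rose by 0.98 ± 0.11 (adjusted p = 9.9e-06 by limma), although its dimmer probe gave 0.10. Prkcq, the kinase that links the T cell receptor to NF-κB, rose by 0.49 ± 0.11 (0.00241). Traf2, an adaptor of TNF receptors, fell by 0.73 ± 0.12 (0.000237). Map3k7, which encodes the kinase TAK1, fell by 0.61 ± 0.18 (0.0167) on its brighter probe, while its other probe gave 0.47, and the call was lost without the D3 array of experiment 1 (0.0741) or the D8 array of experiment 3 (0.0681). Without that D8 array 1 gene of this list fell, and with the experiment as a block 4 genes did. With median centring in place of quantile normalization, 1 gene of the list was called higher.

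Of 5 tested genes of the non-canonical route and the IKK-related kinases, 4 fell and 0 rose, with a median change of -0.45. The list does not separate genes that activate the route from genes that restrain it, and the activity of the route was not measured. Birc2, a ubiquitin ligase of TNF receptor complexes, fell by 0.87 ± 0.12 (adjusted p = 4.73e-05 by limma), and its 3 other probes gave -0.63 to -0.92. Ikbke, an IKK-related kinase, fell by 0.82 ± 0.15 (0.000795). Map3k14, which encodes NIK, the kinase that starts the non-canonical route, fell by 0.45 ± 0.10 (0.0028). Tbk1, a kinase related to Ikbke, fell by 0.33 ± 0.10 (0.0183), a call that was lost without the D3 array of experiment 2 (0.0554) or the D8 array of experiment 1 (0.0732).

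Negative regulators of the pathway were lower or not called. Of 13 tested, 5 fell and 0 rose, with a median change of -0.28. With the experiment as a block 7 were lower, by adding Tax1bp1 (adjusted p = 0.0276 by limma, against 0.0726 without) and N4bp1 (0.0304 against 0.0632), both named after their values were seen. With median centring 2 were lower, and with the mean of a gene's probes 3 were lower and 1 higher. Tnip1, a ubiquitin-binding partner of A20, fell by 0.88 ± 0.11 (adjusted p = 3.4e-05 by limma). Tnfaip3, which encodes A20 itself and is induced by NF-κB, fell by 0.76 ± 0.15 (0.00133). Cyld, a deubiquitinase, fell by 0.42 ± 0.10 (0.00465). Zc3h12a, which encodes the RNase Regnase-1, fell by 0.55 ± 0.20 (0.0428), with -0.24 for its other probe. That call was lost when any 1 of 7 arrays was left out, with adjusted p-values of 0.0527 to 0.138 by limma. These were the D3 arrays of experiments 1 and 2, the D4 and D6 arrays of experiment 2 and the 3 arrays of D8. Without the D3 array of experiment 1 or of experiment 2, 3 genes of this list fell. Among 3 further genes related to IκB proteins, Nkiras2, whose product binds IκB proteins, rose by 0.43 ± 0.11 (0.00579). Nfkbiz, a further nuclear IκB, measured 0.28 ± 0.14 (0.144) and Nkiras1 measured -0.17 ± 0.13 (0.331).

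Receptors and ligands that signal to NF-κB held some of the larger decreases. Of 15 tested, 6 fell and 1 rose, with a median change of -0.36. That median was the value of Cd27 (adjusted p = 0.0253 by limma), named after its value was seen, whose other probes gave -0.17 and 0.04. Lta, the ligand lymphotoxin alpha, fell by 1.41 ± 0.16 (adjusted p = 1.08e-05 by limma) and Ltb, its partner chain, by 0.72 ± 0.17 (0.0037). The costimulatory receptors Tnfrsf9 (4-1BB) and Tnfrsf18 (GITR) fell by 1.30 ± 0.13 (3.92e-06) and by 1.18 ± 0.14 (1.94e-05). The gene that rose was Tnfsf11, at 0.49 ± 0.16 (0.0288), named here after its value was seen. No gene of the list was called higher without the D3 array of experiment 3 or the D8 array of experiment 1, and 2 were without the D3 array of experiment 2 or with the experiment as a block. The block also gave 7 genes lower.

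Genes known as NF-κB targets in lymphocytes were split. Of 21 tested, 7 fell and 3 rose, with a median change of -0.22, and with the experiment as a block 9 were lower. Cd69, an early activation antigen, fell by 1.83 ± 0.15 (adjusted p = 6.79e-07 by limma), although its dimmer probe gave -0.14. Ccr7, the receptor that guides T cells within lymph nodes, fell by 1.77 ± 0.20 (1.35e-05), and Cd83, a surface protein of activated lymphocytes, fell by 1.59 ± 0.15 (2.65e-06). Ifng, the cytokine interferon gamma, rose by 1.50 ± 0.20 (4.41e-05) but was detected on 1 D3 array, 2 D4 arrays, 0 D6 arrays and 3 D8 arrays, and its other probe gave 0.70. The share of each list that was called stands beside 17.6% higher and 18.9% lower over all genes tested. With the experiment as a block, the list counts above stand beside 21.1% higher and 23% lower over all genes tested.

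**Figure D4:**
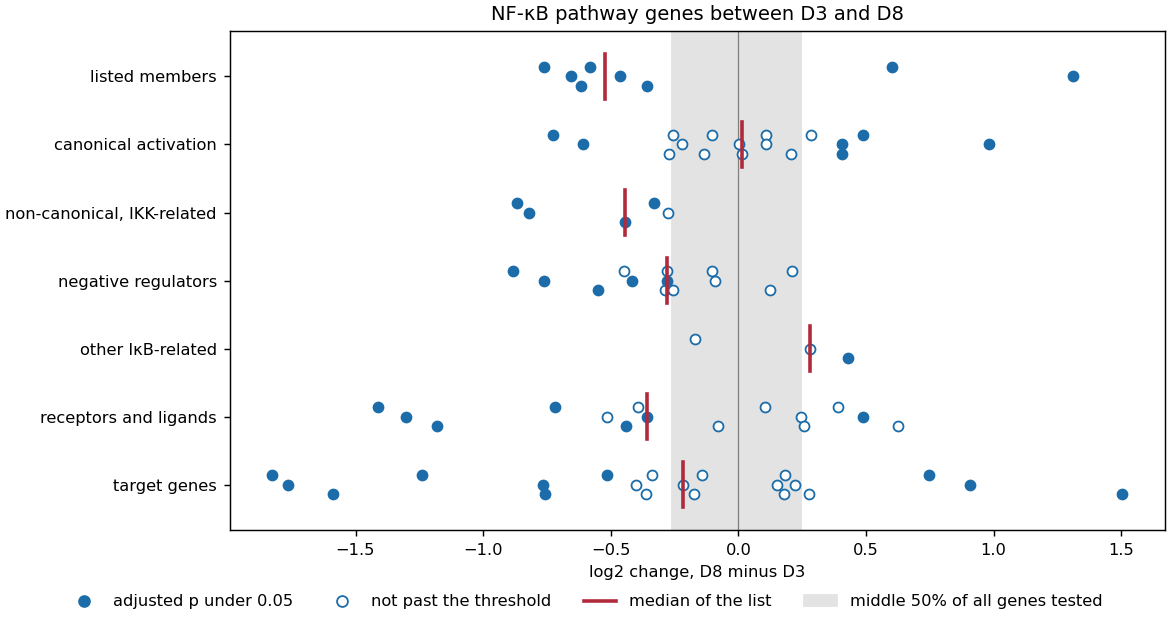
Log2 change from D3 to D8 (x axis) of every tested gene of the 8 members and of 6 pathway lists (y axis). Filled points have an adjusted p under 0.05, red bars are list medians and the grey band holds the middle 50% of all genes tested. All 8 members lie outside the band, and the medians of the lists run from -0.45 for the non-canonical list to 0.28 for the other IκB-related genes.

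Markers of other cells were measured as lists, and their part in these results was not tested. Of 6 annotated B cell markers, 3 were detected (Cd79b, Cd22 and Fcer2a), and Ms4a1, Pax5 and Blk were not. From D3 to D8, Cd79b measured -0.26 ± 0.29 (adjusted p = 0.521 by limma), with -0.29 for its other probe. Fcer2a measured 0.17 ± 0.14 (adjusted p = 0.372 by limma). The summed linear intensity of this list was 89.4 to 111 in D3, 103 to 117 for D4, 131 to 156 for D6 and 119 to 193 for D8. One of its genes, Cd22, was not detected on any D3 array and was detected on all 3 D8 arrays. Its D8 mean was at least 3.01-fold higher (means of 4.57 and 6.29 as measured, adjusted p = 0.000621 by limma), with D3 set to the lowest intensity among detected probes of each array. For dendritic cells and macrophages, 2 of 7 annotated markers were detected (Itgax, Adgre1, Flt3, Xcr1 and Fcgr1 were not), and the sums ran from 56.4 to 102 in D3 and from 85.3 to 142 in D8. For CD8 T cells and NK cells, 2 of 5 were detected (Cd8a, Ncr1 and Klrb1c were not), with sums of 2656 to 3916 in D3 and 2400 to 3026 in D8. Of these 2, Cd8b1 was bright, with means of 11.67 in D3 and 11.30 in D8. It measured -0.36 ± 0.15, with an adjusted p of 0.0748 by limma and of 0.00771 with the experiment as a block, and its 2 other probes gave 0.33 and -0.36. Klrd1 rose by 1.37 ± 0.25 (0.000722).

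Across the 12 arrays, the genes whose log2 intensity followed Bcl3 most closely were Tmem121 (Pearson r = 0.987), Kcnab2 (0.983), Arc (0.983), Fancd2 (0.982) and Camk2n2 (0.981), with Spearman's rho between 0.958 and 0.986. Those nearest to Rel, the member with the largest decrease, were Rtl6 (0.962), Idh2 (0.955), Dcaf4 (0.952), St6gal1 (0.950) and Wdr6 (0.944), with rho between 0.783 and 0.965. After the division means were removed, r was 0.826 to 0.949 for the first 5 genes and 0.876 to 0.957 for the second 5. These values describe 12 arrays that share divisions and experiments, and the genes were picked as the highest of all 9566.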

How the data were processed

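The authors deposited probe intensity values on a linear scale, read out with BeadStudio 2.0 per the submitters' processing notes and not normalized. A detection p-value per probe and array stands beside them, per the file headers. A second table of intensity values processed by the authors, by a method not given in the sources used here, had array medians of 2.74 to 2.76 and served as an alternative. Both held 45281 probes, of which the platform annotation gave 34885 a single symbol, 18 several and 10378 none. Looking up 34807 symbols by gene identifier changed 0. A genome build is not given in the sources used here.

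Deposited intensities were turned into normalized log2 values by the neqc function of limma 3.58.1, run in R 4.3.3 (offset 16, negative controls inferred from the detection p). A probe was kept if detected (p under 0.05) on 3 or more arrays (17829 probes, of which 14972 had 1 symbol), and the brightest probe stood for each gene. One model with 4 division means over 12 arrays was fitted with lmFit and eBayes (8 residual degrees of freedom). Its estimates were first checked on simulated arrays that had no experiment effect. That check does not give the error rate of the calls in these data. The number of arrays limits the precision. The comparisons were the 6 pairs of divisions and D4 against the mean of the others.

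Array numbers are experiment numbers per the labels. After removal of division means, the 18 same-experiment pairs correlated at 0.205 to 0.438. The 36 pairs that differed in both experiment and division correlated at -0.373 to 0.034, and pairs within a division were left out. Removal of the means ties these values to each other, so that they are not independent. Fits with the experiment block are quoted where the call of a named gene changes, for some D3 to D8 results of members and for some counts of lists.

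The members and gene lists were chosen with earlier results of these data known. Named were all members, up to 4 called genes of each pathway list with the largest D8 minus D3 change, all other IκB-related genes, and the 5 genes correlating best with Bcl3 and with Rel. Alternatives changed the normalization, offset, detection filter, probe rule, array weights, arrays fitted and block.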

Additional observations from a re-analysis of the deposited data

How the results depend on the processing

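No member changed direction in a called result. Over 608 member results under other settings, 583 kept their side of the threshold, 15 lost a call and 10 gained one, and over 672 results with an array left out these numbers were 640, 27 and 5. With median centring, which moved the median of all genes by -0.135 for D6 against D3 and by -0.0575 for D8 against D3, the members called were 5 for D8 against D3, 1 for D6 against D3, 0 for D6 against D4 and 0 for D8 against D6. The calls lost from D3 to D8 were those of Rela (adjusted p = 0.0979 by limma), Nfkbid (0.0752) and Nfkbie (0.0565). The count for D8 against D6 was also 0 without the detection filter and with only the arrays compared in the fit. With the replicate block, the counts were 6 for D8 against D4, 2 for D8 against D6 and 3 for D4 against the mean of the others, and the block changed no other count of members. The last count was 2 with quantile normalization alone, with the larger offset and with the strict filter. With an array left out, the counts ran from 5 to 8 for D8 against D3, 3 to 5 for D8 against D4, 0 to 1 for D8 against D6, 1 to 3 for D6 against D3, 0 to 1 for D6 against D4 and 1 to 2 for D4 against the mean, and stayed at 0 for D4 against D3. Apart from the block, no share of all genes called is given for these settings or for fits with an array left out. The causes were not tested. Without the detection filter, where 19057 genes were tested, Nfkbia (0.0655) and Nfkbie (0.0542) lost their D3 to D8 calls, as did Map3k7 (0.0519) and Zc3h12a (0.12) of the pathway lists. In the pathway lists, whose alternatives were added after the data were seen, median centring ended the D3 to D8 calls of Prkcq (0.0917), Tbk1 (0.205), Cyld (0.106), Zc3h12a (0.0551) and Nkiras2 (0.223). The mean of all probes gave -0.07 for Map3k7 (0.683), -0.33 for Cyld (0.0562) and -0.40 for Zc3h12a, whose call it kept (0.029). Nfkb2 lay at background on all arrays and could not be measured.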

Other observations

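Between D4 and D6, where Bcl3 was the only member called, 3 of the 15 tested receptors and ligands fell and 0 rose, with 1.92% of all genes called lower. Tnfrsf9 fell by 0.71 (adjusted p = 0.00685 by limma), Tnfrsf18 by 0.61 (0.0256) and Lta by 0.77 (0.0144). Of the 21 tested target genes 1 fell, Cd69, by 0.81 (0.00789).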
